A study of Mus musculus with 47 samples.

Results

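The genes described here are those of skeletal muscle contraction and muscle energy metabolism, measured in mouse inguinal white adipose tissue (iWAT), the subcutaneous fat depot of the groin and flank. The members were a list of 45 gene symbols, matched to the gene name of each non-control spot on the array. Of the 45, 44 were on the array with 78 probes on 96 spots, of 27745 gene symbols and 41174 probes in all, and Mybpc1 was not found. A gene was taken as measured where a probe had mean Cy5 and Cy3 signals at least 2 times the local background over the 47 arrays. This left 39 muscle genes of 14503 measured genes, and Tnni1, Casq2, Myoz2, Lmod2 and Myog were dim. A gene that was bright in few mice could pass, so that counts over the 39 do not stand for the whole list.

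The 47 mice were wild-type (WT) or Bcmo1-null, without the enzyme that cleaves β-carotene (BC) to retinal, on a C57/BL6;129Svj background. From 5 to 19 weeks of age all of them ate a defined diet with 1500 IU vitamin A/kg and 10% of energy as fat, without BC (control diet) or with 150 mg BC/kg (BC diet). Sex, genotype and diet gave 8 groups of 6 mice, apart from 5 mice among the WT males on the BC diet. Each array held the Cy5-labeled RNA of 1 mouse against a Cy3-labeled pool made from every sample, so that a log2 ratio of 0 is the level of the pool and p-values measure the spread between mice.

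Striated muscle shortens when myosin heads of the thick filament pull on actin of the thin filament, and calcium binding to troponin on the thin filament permits it. Fast and slow fibres use different genes for the same parts. Fast fibres make the myosin heavy chains Myh4, Myh1 and Myh2 and the troponins Tnnc2, Tnni2 and Tnnt3, whereas slow fibres make Myh7, Tnnc1, Tnni1 and Tnnt1. Fat cells do not contract, and in the mouse iWAT lies between the body wall and the skin, which has a thin muscle layer of its own.

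Median signals of the arrays lay between 130 and 277 in Cy5 and between 112 and 158 in Cy3, over backgrounds of 51 to 56 and of 50.5 to 65.5. No member was saturated, no pair of arrays correlated above 0.94, and the number of arrays limits the precision. The single probe of Bcmo1 was near background in both genotypes, at -0.26 to 0.48 in the 23 WT mice and at -0.17 to 0.31 in the 24 Bcmo1-null mice, so that these arrays do not check the genotype. In whole tissue, fewer muscle cells and less RNA per cell cannot be told apart.

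Of the 45 listed genes 35, Mybpc1 among them, had a promoter in the RefSeq table of GRCm38.p6, and the 250 bases before the first listed start were searched on both strands. The E-box CAGCTG, a palindrome bound by myogenic factors, was found in 16 of the 35 (45.7%), and in 12.8% of all 27025 promoters of that length. The MEF2 site was found in 20% against 3.01%, the CArG box in 8.57% against 1.4% and TATAAA in 14.3% against 13%. Shown are 4 promoters, of the fast myosins Myh4 and Myh2, whose values parted in some mice, of the fast light chain Mylpf and of the slow troponin Tnnt1, and capitals mark the matches, 5′ to 3′ on the strand of the gene. The Myh4 promoter lies at chr11:67237562-67237811 (plus strand), that of Myh2 at chr11:67170777-67171026 (plus), that of Mylpf at chr7:127211358-127211607 (plus) and that of Tnnt1 at chr7:4515976-4516225 (minus).
Myh4: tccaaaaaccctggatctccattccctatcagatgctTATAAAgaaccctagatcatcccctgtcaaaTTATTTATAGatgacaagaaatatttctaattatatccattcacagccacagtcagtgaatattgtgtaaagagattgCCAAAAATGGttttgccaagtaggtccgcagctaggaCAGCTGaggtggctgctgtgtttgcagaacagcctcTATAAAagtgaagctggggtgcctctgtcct
Myh2: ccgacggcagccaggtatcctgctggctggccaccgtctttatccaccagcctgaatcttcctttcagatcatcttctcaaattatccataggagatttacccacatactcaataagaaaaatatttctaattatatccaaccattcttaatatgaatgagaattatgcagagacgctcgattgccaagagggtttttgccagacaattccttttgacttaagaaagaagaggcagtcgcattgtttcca
Mylpf: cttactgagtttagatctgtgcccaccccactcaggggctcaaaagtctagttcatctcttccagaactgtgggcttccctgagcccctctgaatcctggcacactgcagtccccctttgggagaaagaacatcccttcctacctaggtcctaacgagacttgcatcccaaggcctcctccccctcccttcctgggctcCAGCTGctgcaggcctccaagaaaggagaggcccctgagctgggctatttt
Tnnt1: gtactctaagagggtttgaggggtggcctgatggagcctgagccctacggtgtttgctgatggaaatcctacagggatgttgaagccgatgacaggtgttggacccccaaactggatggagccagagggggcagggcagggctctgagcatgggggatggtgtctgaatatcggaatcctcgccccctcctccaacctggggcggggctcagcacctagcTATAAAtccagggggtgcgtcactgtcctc
The Myh4 window held a match to each of the 4 motifs, with 3 matches to TATAAA, of which 1 overlaps the MEF2 site on the other strand. The Myh2 window, of a gene in the same cluster, held none of them. The Mylpf window held CAGCTG and the Tnnt1 window TATAAA. These are matches of letters and not bound sites, and a window without a match says nothing on a factor.

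Muscle genes were among the most variable transcripts of these depots, and the spread lay between mice of the same group. The SD of the log2 ratio within groups had a median of 1.81 over the 39 muscle genes and of 0.22 over all measured genes. It ran from 0.72 for Tpm2, a tropomyosin, to 2.41 for Pvalb, the calcium buffer of fast fibres. Each of the 39 lay above 0.66, the 95th percentile of all measured genes, and 27 of the 100 most variable genes were members. Group membership held a median of 29.1% of a member's variance. The lowest share was 15.1% for Myh7 and the highest 52.6% for Jph1, which ties the surface membrane to the calcium store. With 8 groups such a share lies above 0 even where the groups do not differ. The share of all measured genes is not given here.

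The median of the 39 muscle genes ran from -3.36 to 2.12 over the 47 mice. It was above 0 in 12 mice, 2 females and 10 males, and below -2 in 24 mice. All 39 were above the pool in 4 mice, which were Bcmo1-null female control 1, Bcmo1-null female BC 1, WT male control 1 and WT male control 6. Single genes spanned 3.15 to 8.58 log2 units between the lowest and the highest mouse, with a median span of 6.02.

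Acta1, the thin filament actin of skeletal muscle, had medians of -3.16 (-3.64 to -2.45) and -2.30 (-3.62 to -0.21) in WT females without and with BC, and of -2.38 (-3.42 to 1.48) and -2.41 (-3.87 to 2.00) in Bcmo1-null females without and with BC. In males its medians were -0.57 (-3.09 to 2.33) and 1.42 (-2.43 to 1.90) in WT and -1.83 (-2.97 to 1.36) and -1.10 (-3.24 to 1.87) in Bcmo1-null mice, in the same order of diets. The ranges of WT females on the control diet and WT males on the BC diet just failed to overlap, and those of all other groups overlapped.

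Ckm, the creatine kinase that buffers ATP in muscle, was at -3.99 to -2.41 in WT females on the control diet, with a median of -3.76. In the WT males on the BC diet the 5 values were 1.68, -2.99, 1.80, 0.62 and 1.26. A single mouse of this group, replicate 2, thus lay among the low females while its group mates were above the pool. Ckmt2, the mitochondrial creatine kinase, had an SD within groups of 2.17, close to the 2.04 of Ckm. Other genes of energy supply had SDs of 1.99 (Pgam2, of glycolysis), 1.67 (Eno3, an enolase), 1.54 (Mb, myoglobin, which stores oxygen), 1.37 (Ampd1, of purine turnover) and 1.32 (Pygm, which breaks down glycogen).

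Among genes of the calcium store, Atp2a1, the calcium pump of fast fibres, had an SD of 1.50 and Ryr1, the release channel, of 1.18. The Atp2a1 value of Bcmo1-null male control 1 rests on the probe chosen, since the brightest probe was at -3.67 with a Cy5 signal of 66, and the second probe was at 1.25 with a signal of 1691. The 20 second probes of 13 members correlated with the brightest probe at 0.72 to 1.00, with a median of 0.98. Genes of the Z disc spanned from 0.80 for Des, the intermediate filament desmin, to 2.28 for Myot, myotilin.

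The pool channel was not constant for the brightest muscle genes. The Cy3 signal of Myh4 ran from 16471 to 109648, 6.66-fold, and was low where Cy5 was high (Spearman rho -0.76 over 47 arrays, a description). The same was seen for Tnnc2 (rho -0.79), Tnni2 (-0.73) and Myl1 (-0.64), a light chain of fast myosin, so that their highest ratios are larger than the change in Cy5. It was weaker for Eno3 (-0.49), Tnnt3 (-0.45) and Mylpf (-0.30), whose Cy3 signals varied 1.36-fold, 1.62-fold and 1.54-fold. Over the 39 genes rho ran from -0.79 to 0.71, the highest being that of Ldb3, a Z disc protein.

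Fast and slow genes were then set against each other. All 14 genes of the fast list were measured, and 4 of the 8 of the slow list (Myh7, Myl2, Tnnc1, Tnnt1). Over the 47 mice the fast median ran from -3.92 to 2.36 and the slow median from -1.85 to 3.38. Both medians were above 0 in 5 mice, and the fast median alone was above 0 in 7 mice, all of them males. WT male control 2 was the single mouse with the slow median above 0 (0.69) and the fast median below 0 (-0.35), and in 34 mice both were below 0.

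The slow median was above 0 in 6 mice, at 3.38 in WT male control 1, 2.57 in Bcmo1-null female control 1, 1.91 in Bcmo1-null female BC 1, 1.54 in Bcmo1-null male BC 5, 0.69 in WT male control 2 and 0.27 in WT male control 6. Myh7, Myl2 and Tnnt1 were above 0 in the same 6 mice, and Tnnc1, the calcium sensor shared by slow and heart muscle, in these 6 and in WT male BC 3. The 5 WT males on the BC diet had fast medians of 2.36, -2.85, 1.80, 0.68 and 1.30 and slow medians of -0.50, -0.88, -0.33, -1.59 and -1.77. The fast median was thus above 0 in 4 of these mice and the slow median in none.

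**Figure D1:**
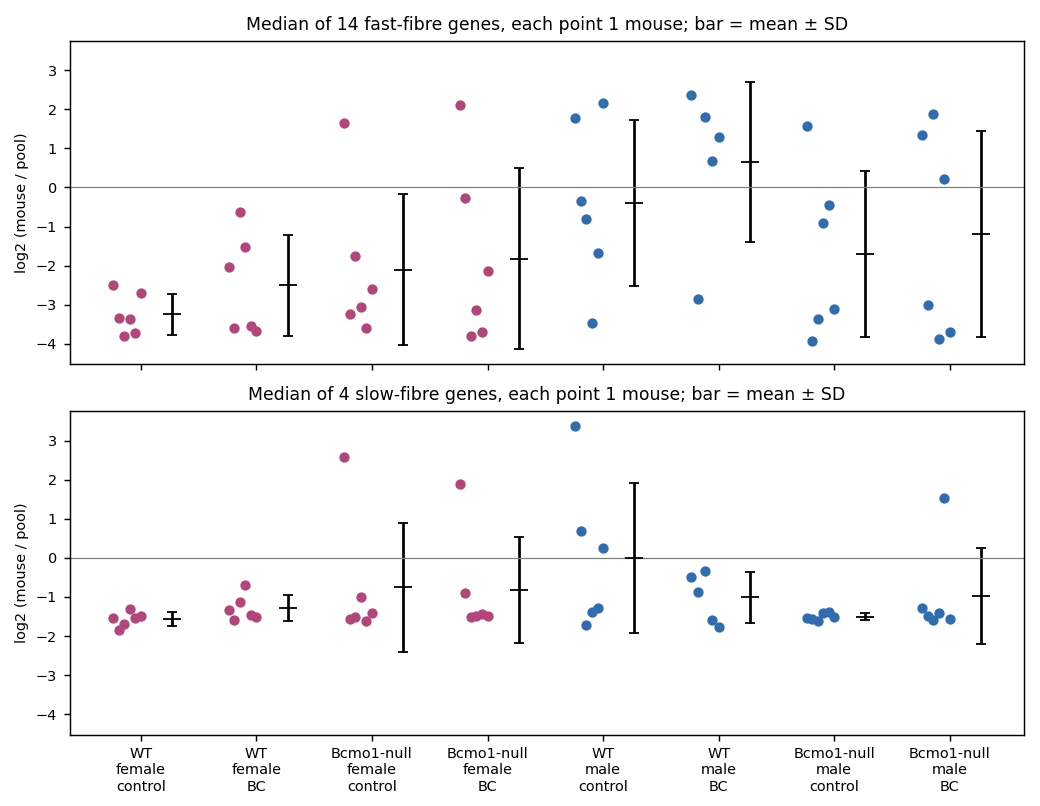
Median log2 ratio to the pool of the 14 fast genes and of the 4 measured slow genes in each mouse of the 8 groups, 1 point per mouse. The slow median is above 0 in 6 mice, with 3.38 in WT male control 1 as the highest, and the fast median in 12.

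The troponins T, which tie the troponin complex to tropomyosin, show the contrast of the 2 lists within groups. Tnnt3, the fast form, had medians of -4.67, -3.43, -3.37 and -3.30 in the female groups (WT control, WT BC, Bcmo1-null control, Bcmo1-null BC) and of -0.63, 1.37, -2.29 and -1.82 in the male groups in that order. Tnnt1, the slow form, had medians of -1.02, -0.80, -0.82 and -0.88 in females and of -0.28, -1.18, -0.83 and -0.70 in males. The highest Tnnt1 value was 2.72 in WT males on the control diet and -0.66 in Bcmo1-null males on the control diet, whose highest Tnnt3 value was 1.62. Tnnc1 was well above background in Cy5 on 41 of the 47 arrays and Tnnt1 and Tnnt3 on all.

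Among the fast myosins, Myh4 and Myh2 parted in a few mice. Myh4, the chain of the fastest fibres, exceeded Myh2, the chain of fast oxidative fibres, by 5.61 log2 units in Bcmo1-null male BC 3, 5.40 in Bcmo1-null male control 1, 4.79 in WT male BC 5 and 3.37 in WT female BC 3. In the other 43 mice this difference of ratios was between -2.08 and 1.44. In Bcmo1-null male BC 3, Myh4 was at 2.43, Myh2 at -3.17 and Mb at -1.81. Mb was below the pool in all 4 mice, at -1.81, -1.74, -1.19 and -2.21 in the order above. Across mice Mb ran closer to Myh2 (Spearman rho 0.94) than to Myh4 (0.81), and Myh1 ran with Myh2 (0.95), as a description over 47 arrays that share the pool. Myh4 as such had the widest span of ratios of the 39, 8.58 log2 units. It ran from -5.08 in a WT female on the control diet to 3.51 in WT male BC 1. In this male Myh2 was at 2.74 and Myh7 at -2.64. The Cy3 signal of Myh4 was at its lowest on that array (16471), which widens the span. In Cy5 alone Myh4 spanned 71.8-fold, less than Myh1 (330-fold) and Myh2 (295-fold). In the 4 mice named above, in that order, the Cy3 signal of Myh4 was 29941.7, 33459.8, 36568.4 and 61091.2, under its median of 89436.7. Myh2 peaked at 3.62 in Bcmo1-null female control 1, where Myh4 was at 1.99 and Myh7 at 3.15. In the mm8 positions of the files their brightest probes lie at chr11:67076527-67076586 for Myh4, chr11:67013603-67013662 for Myh2 and chr14:53924898-53924957 for Myh7. The sequences of the myosin probes were not used here, and hybridisation between these related genes was not tested.

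Spearman correlations over the 47 mice had a median of 0.93 between fast genes (0.74 to 0.99), 0.50 between slow genes and 0.46 between a fast and a slow gene. The 4 measured slow genes were faint in most mice, with Cy5 medians of 118 to 374 over backgrounds of 51 to 56. For the 4 fast and slow pairs, both correlations were tested with 100000 permutations and adjusted over the 4 pairs. Tnni1, in the pair with Tnni2, did not pass the brightness filter. Its Cy5 signal had a median of 102 and was well above background on 26 of the 47 arrays. Pearson's r was 0.53 for Tnnc2 with Tnnc1 (adjusted p = 0.00012; rho 0.36, adjusted p = 0.0135), 0.58 for Tnni2 with Tnni1 (adjusted p = 0.00012; rho 0.62, adjusted p = 4e-05), 0.50 for Tnnt3 with Tnnt1 (adjusted p = 0.00023; rho 0.46, adjusted p = 0.00224) and 0.53 for Myh4 with Myh7 (adjusted p = 0.00012; rho 0.42, adjusted p = 0.00496). Without the 2 mice farthest from the median of the fast gene r was 0.49 to 0.59, and rho of Tnnc2 with Tnnc1 was 0.28 (adjusted p = 0.066 by permutation).

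Within the 24 females r was 0.78 to 0.90, with 2 mice high in both genes of a pair, whereas the rank correlation rho, on which single high mice weigh less, was 0.17 for Tnnc2 with Tnnc1 (adjusted p = 0.42 by permutation), 0.39 for Tnni2 with Tnni1 (adjusted p = 0.083), 0.58 for Tnnt3 with Tnnt1 (adjusted p = 0.00758) and 0.70 for Myh4 with Myh7 (adjusted p = 0.00088). Within the 23 males r was 0.31 to 0.44, and the permutation test gave adjusted p = 0.16 for Tnnt3 with Tnnt1 and for Myh4 with Myh7 and 0.059 for the other pairs. In males rho was 0.73 for Tnni2 with Tnni1 (adjusted p = 0.0004 by permutation) and 0.56 for Tnnc2 with Tnnc1 (adjusted p = 0.0116), and 0.32 for Tnnt3 with Tnnt1 (adjusted p = 0.19) and 0.27 for Myh4 with Myh7 (adjusted p = 0.22). In females all 4 pairs thus passed by r and 2 by rho. In males 0 passed by r and 2 by rho, the pair of the dim Tnni1 among them. With the mean of each slide removed r was 0.42 to 0.53. The slow values above 0 come from 6 or 7 mice, so that these correlations rest on few animals.

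The diet and genotype comparisons ask whether BC, or the loss of the enzyme that cleaves it, moved these genes. None of the 39 passed limma's p under 0.01 or an adjusted p under 0.05 in any of the 10 comparisons, and the methods' t-test at 0.01 also gave 0 in the 8 comparisons of single groups. In females 7.75% of all 20811 probes passed 0.01 for diet in WT, 0.418% for diet in Bcmo1-null, 5.17% for genotype on the control diet, 9.26% for genotype on the BC diet and 2.46% for the interaction. In males, of 20437 probes, these shares were 0.103%, 0.553%, 27.1%, 25.3% and 0.127%. At an adjusted p under 0.05 the shares were 0%, 0%, 2.5%, 4.18% and 0% in females and 0%, 0.00489%, 29.9%, 28% and 0% in males, in the same order. The comparisons of a sex share groups and are not independent of each other.

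The muscle genes had median log2 changes of 0.66 for diet in WT females, 0.28 for diet in Bcmo1-null females, 1.06 and 0.63 for genotype on the control and BC diets in females, and -0.36 for the interaction in females. In males the medians were 0.85, 0.48, -1.20, -1.46 and -0.29. The median over all probes lay between -0.02 and 0.01. Standard errors of these genes had a median of 0.83 in the female comparisons of groups, so that changes of this size lay within the spread between mice. For Ckm the diet effect in WT females was 0.93, with a 95% interval of -1.08 to 2.93, and was not detectable with 6 mice a group. It was 0.51 to 1.19 with a mouse left out, and 0.51 without WT female BC 3.

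At an unadjusted p under 0.05, 4 muscle genes were lower in Bcmo1-null than in WT males on the control diet, where 40.1% of all probes passed and 18.8% were lower. These were Tnnc1 (-1.29, limma adjusted p = 0.0525), Myl2, the slow light chain (-1.98, limma adjusted p = 0.0589), Myh7 (-2.16, limma adjusted p = 0.112) and Jph1 (-0.95, limma adjusted p = 0.124). Tnnc1 was at -0.68 to 3.41 in the WT males, with a median of -0.19, and at -1.09 to -0.72 in the Bcmo1-null males. The Myh7 values were -3.54 to 3.45 in these WT males and -3.26 to -2.93 in the Bcmo1-null males, and 3 of the 6 WT mice were above 0. On the BC diet 1 gene passed, Jph1 (-1.07, limma adjusted p = 0.0986), where 40.5% of all probes passed and 19.5% were lower. The interaction in males passed for 1, Tnnt1 (1.54, limma adjusted p = 0.999), where 1.44% of all probes passed and 0.641% were higher. In the other 7 comparisons 0 of the 39 passed 0.05 in limma. There, 21.9%, 2.72%, 11.9%, 20.6% and 9.77% of all probes passed in the female comparisons in the order above, and 1.95% and 4.06% for diet in WT and Bcmo1-null males.

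Males had more signal for most muscle genes than females. Over the 4 genotype and diet groups, 30 of the 39 were higher in males at limma's p under 0.01 and 0 were lower, where 21.9% of all 20718 probes were higher and 23.1% lower. At an adjusted p under 0.05 it was 32, of which 31 were higher, where 51.5% of all probes passed and 25.3% were higher. The median difference of the muscle genes was 1.69 log2 units, and that of all probes was -0.01. The sexes overlapped for every gene named here.

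The largest differences were for Pvalb (2.59, SE 0.68), Ckmt2 (2.23, SE 0.61), Myot (2.18, SE 0.65), Tnnt3 (2.16, SE 0.66) and Myh4 (2.15, SE 0.66). For Pvalb the 24 females ran from -5.14 to 1.86 with a median of -4.60 and the 23 males from -4.92 to 2.52 with a median of -0.53. For Ckm the females had a median of -3.50 (-3.99 to 2.16) and the males of -0.64 (-3.77 to 2.23), a fitted difference of 3.68-fold (limma adjusted p = 0.0060). Jph1 had medians of -1.22, -1.52, -1.15 and -1.38 in the 4 female groups, in the order WT control, WT BC, Bcmo1-null control and Bcmo1-null BC, and of 0.22, 1.19, -0.32 and -0.33 in the male groups. It had the lowest p (1.41, SE 0.24, limma adjusted p = 2.93e-06), and its value was above 0 in all 11 WT males, in 5 of the Bcmo1-null males and in 2 females.

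By class, 12 of 14 fast genes were higher in males at p under 0.01, the others being Myh1 (1.07, SE 0.62) and Myh2 (1.09, SE 0.59). None of the 4 measured slow genes passed 0.01 or 0.05 in limma, where 56.3% of all probes passed 0.05, with differences of 0.10 for Myh7 (95% interval -0.92 to 1.13), 0.11 for Tnnc1 (-0.37 to 0.59), 0.12 for Tnnt1 (-0.41 to 0.65) and 0.41 for Myl2 (-0.36 to 1.18). The difference between the classes was not tested. The 4 slow genes were faint, with Cy5 medians of 118 (Myl2), 139.5 (Tnnc1), 254 (Myh7) and 374 (Tnnt1). Those of the fast genes ran from 130.5 (Casq1) to 37107.4 (Myh4). Ratios of signals near background are drawn towards 0, and the part of this in the contrast was not tested. Of the 21 remaining genes 18 were higher, and Mb (1.07, limma adjusted p = 0.0370), Actn2, the Z disc actinin (0.55, limma adjusted p = 0.0813), and Tpm2 (-0.48, limma adjusted p = 0.0454) did not pass an unadjusted p of 0.01.

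**Figure D2:**
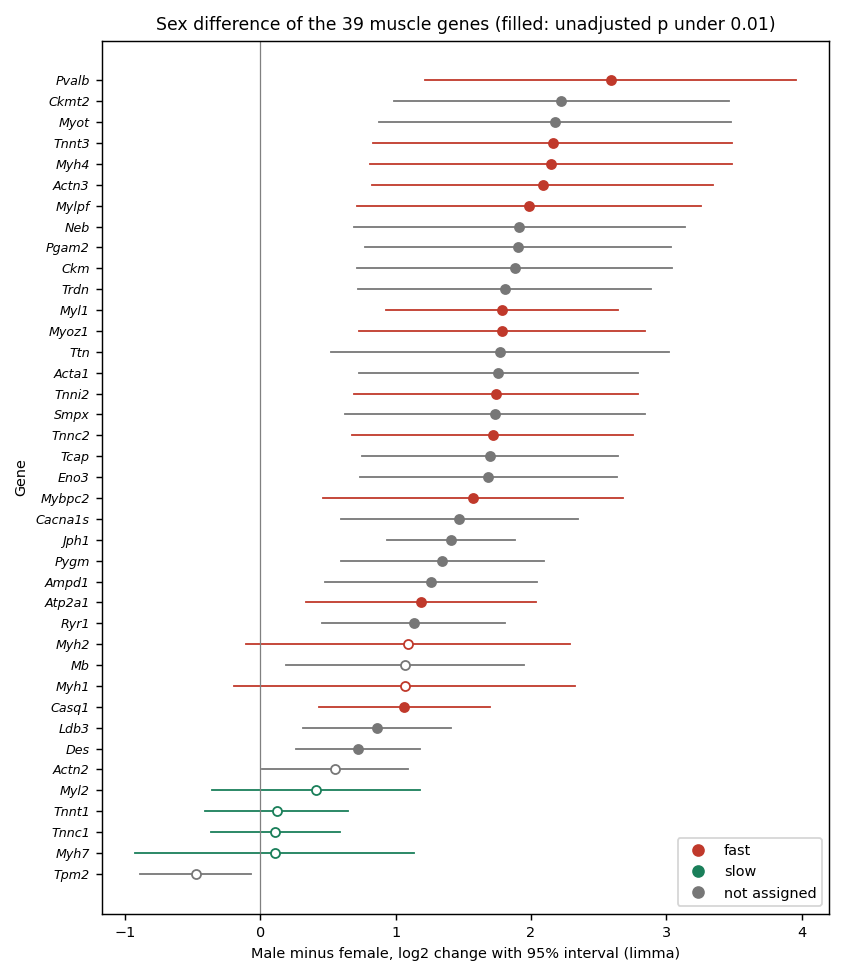
Male minus female difference in log2 ratio with its 95% interval from limma for each of the 39 measured muscle genes, coloured by class. Most lie above 0, with Pvalb highest at 2.59, and the intervals of the 4 slow genes include 0.

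Sex and slide were partly confounded, since 4 of the 12 slides held females only, 4 males only and 4 both. With slide as a block 17 of the 39 passed 0.01 and the median difference was 2.69. Within the 4 slides of both sexes, each with 3 or 4 arrays, Ckm was higher in males by 1.22 to 4.42 and Tnnt1 by 0.01 to 1.01. With the Cy5 channel alone, chosen after seeing the data, the difference of Myh4 was 1.66 instead of 2.15 and 29 genes passed. The shares of all probes that passed under these settings are not given here, so that these counts cannot be set against them.

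Most other muscle genes, from a second list, moved with the members. Of 56 genes 44 were measured, and 27 of them had a Spearman correlation above 0.8 with the median of the members over the mice. The share of all measured genes above 0.8 is not given here. In each of the lists of other cells read below, 0 genes were above 0.8. The lowest were those of Tpm3 (-0.36), Cox8b (-0.27) and Cox7a1 (-0.04), which did not follow the members. In limma 31 were higher in males at p under 0.01 with 0 lower, where 21.9% of all probes were higher and 23.1% lower. The 10 genes outside the list most like the members were Myom2 (0.97), Myh8, Nrap, Myo18b, Tpm1, Hrc, Trim54, Xirp2, Cox6a2 and Mylk2 (0.95). For Myh8, the perinatal myosin, 1 bright probe carried this value and 3 other probes were dim. Myh8 was also 1 of 6 listed markers of muscle precursors, and it alone of them passed the brightness filter. The others (Myf5, Myod1, Pax7, Myh3, Chrng) were dim, as was Myog, and so were Myh6, Myl7, Nppa and Tnnt2 of heart muscle. A probe failed the filter where either dye fell short, so that dim genes were not all without signal. The Cy5 signal was well above background on 40 arrays for a probe of Tnnt2 (median 153). It was so on 21 arrays for Myod1 and on 18 for a probe of Chrng (highest 648). All other probes of these dim genes were so on 9 arrays or fewer.

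Lists of markers of other cells were read in the same mice. The median of each list correlated with that of the members at rho -0.41 for brown adipocytes, -0.30 for mammary epithelium, -0.28 for lymph node, -0.24 for smooth muscle, 0.11 for skin, 0.13 for blood and 0.25 for adipocytes, as a description over 47 mice. In the comparison of the sexes, 21.9% of all probes were higher and 23.1% lower in males at p under 0.01 in limma. At this threshold 6 of 7 smooth muscle genes were lower in males (list median -0.83), 7 of 7 mammary genes were lower (-4.90) and 6 of 9 adipocyte genes were higher (0.49). Of the lymph node genes 0 of 10 passed 0.01 and of the skin genes 0 of 2, with 1 and 0 at 0.05, where 56.3% of all probes passed. Of 8 brown adipocyte genes 2 were higher and 3 lower, which is not far from the shares of all probes. Among blood genes 3 of 3 were higher (0.42), and Tnni3 of heart muscle was lower (-0.39, limma adjusted p = 1.43e-06). In the genotype comparisons in males 9 of 9 lymph node genes were higher in Bcmo1-null mice at limma's p under 0.01 on both diets. Their medians were 2.68 (control) and 3.00 (BC), where 27.1% and 25.3% of all probes passed. Of 9 adipocyte genes 4 and 3 were lower there, and of 8 brown adipocyte genes 4 and 0 were higher. The part of these cell types in the muscle values was not tested.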

How the data were processed

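Expression was measured in iWAT of 24 female and 23 male mice, 1 array per mouse. The authors hybridized the Cy5-labeled RNA of each mouse against a common Cy3 pool, without dye swap, and quantified spots with Feature Extraction, version 9.5.3.1 in the file headers. The authors deposited median signals, local backgrounds and processed signals as intensity. The deposited series table holds log10 ratios, Cy5 over Cy3, of the processed signals. Probe positions in the files are on mm8.

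The software used here was R (4.3.3) with the packages limma (3.58.1) and data.table (1.17.8), and SciPy (1.17.1) for the permutation tests. From the deposited median intensities, log2 ratios were computed by normexp (offset 50) and loess within arrays. Before normexp, 297 spots whose signal was more than 20 below their local background were set aside (0 to 70 per array), because on 9 of the 47 arrays they raised the fitted background SD above 50, up to 570. Non-uniform spots were left out and repeated spots averaged. Probes with mean signals of at least 2 times the background were kept (20811 in females, 20437 in males, 20718 in all), and the brightest kept probe stands for a gene.

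limma was fitted to the group means of each sex, and to all 47 arrays for sex, with counts at p under 0.01 and at Benjamini-Hochberg adjusted p under 0.05 over all kept probes. Correlations were tested with 100000 permutations. The limma step was tested on simulated data. Members, gene lists, tests and alternatives were chosen with earlier results of these data known. Named are the members, in full the fast and slow pairs and up to 5 members with the largest changes per comparison, with the listed marker genes and the 10 genes most like the members. Alternatives were no background correction, processed signals, the log10 table, median centring, scaling, dim probe filters, blocks, other sample sets, robust regression, averaged probes, the methods' t-test and leaving out each mouse. Normexp on all spots and the Cy5 channel alone were added after seeing the data.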

Additional observations from a re-analysis of the deposited data

Results flagged for a closer look

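Single mice stood apart from their group by Dixon's criterion in 23 of 112 groups tested over 14 genes and medians, where chance gives about 1 in 20, and the genes are correlated, so that these are few independent cases. Bcmo1-null female control 1 was the highest of its group for Tnnc2 (2.02), Tnnc1 (2.21), Tnni2 (1.74), Tnnt1 (2.63), Myh4 (1.99), Myh7 (3.15), Myh2 (3.62) and Ckm (1.59), and for the medians of the 39 muscle genes (1.68), of the fast genes (1.65) and of the slow genes (2.57). The next value of the group was -1.67 for the median of the muscle genes and -2.90 for Myh7. Bcmo1-null female BC 1 was the highest for Tnnc1 (1.45), Tnnt1 (1.86), Myh7 (2.26) and the slow median (1.91). Bcmo1-null male BC 5 was the highest for Tnnc1 (1.09), Tnnt1 (1.59), Myh7 (2.05) and the slow median (1.54), with the next slow median at -1.29. WT male control 1 was the highest for Tnnc1 (3.41) and WT female control 6 for Myh1 (-0.80). WT male BC 2 was the lowest of its group for Tnnt3 (-3.46) and Ckm (-2.99), whereas the next mice were at 0.65 and 0.62.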

How the results depend on the processing

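The median of the muscle genes kept a range over mice of 5.14 to 6.10 under the other settings run for it (5.49 as reported), and the fast minus slow difference one of 5.48 to 6.89 (5.94 as reported). Counts of muscle genes at p under 0.01 in limma were 0 in the diet and genotype comparisons, and the following settings gave others. Genotype on the control diet in males gave 1 with the processed signals and with the log10 table (Tnnc1 in both), without the filter on dim probes (Casq2) and with all 47 arrays (Tnnc1), 3 with robust regression (Myh7, Tnnc1, Tnnt1), and 0 to 2 with a mouse left out, with 2 (Myl2, Tnnc1) without WT male control 3, 4 or 5 and 1 (Myl2) without Bcmo1-null male BC 5. Genotype on the BC diet in males gave 1 without the filter (Casq2), and 0 to 1 with a mouse left out (Jph1, without Bcmo1-null male BC 3). Robust regression gave 1 for diet in WT females (Myh7), 1 for diet in Bcmo1-null females, 1 for genotype on the BC diet in females and 1 for the interaction in females (Tnnc1 in these 3), 2 for diet in WT males and 2 for the interaction in males (Myh7 and Tnnt1 in both). The shares of all probes that passed in these settings are not given here, so that these counts cannot be set against them. The cause was not tested.

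The sex count of 30 became 17 with slide as a block, and was 22 to 34 under the other settings and 27 to 32 with a mouse left out. The shares of all probes that passed under these settings are not given here. Values that changed sign did so with a mouse left out: the diet effect of Ckm in Bcmo1-null females (-0.22 to 1.38) and in Bcmo1-null males (-0.10 to 1.25), its genotype difference on the BC diet in females (-0.0876 to 1.13), and the sex differences of Tnnc1 (-0.0393 to 0.24), Tnnt1 (-0.0101 to 0.27) and Myh7 (-0.12 to 0.36). Replicate numbers did not pair the mice (46 pairs, correlations of deviations -0.55 to 0.57), and with a replicate block the counts were 0 in the 10 comparisons and 32 for sex. Dim probes limit Tnni1, Casq2, Myoz2, Lmod2 and Myog, and the falling Cy3 signal limits the ratios of Myh4, Tnnc2, Tnni2 and Myl1, among others.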

Other observations

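The dim members were read without the filter, and most of their signals were faint. Tnni1, the slow troponin I, was above the pool in 6 mice, at 2.77 in WT male control 1, 1.93 in Bcmo1-null female control 1, 1.46 in Bcmo1-null female BC 1, 0.97 in Bcmo1-null male BC 5, 0.70 in WT male control 2 and 0.20 in WT male control 6. These are the mice with the slow median above 0, in the same order. In them the Cy5 signal of Tnni1 was well above background, at 245.5 to 2150. Myoz2, also of the slow list, reached 2.67 in WT male control 1, with a Cy5 signal of 1344.5. Casq2, the calcium buffer of the store in slow and heart muscle, was at -0.01 to 0.81 in the WT males and at -0.32 to 0.08 in the Bcmo1-null males. In the limma fit without the filter it was lower in Bcmo1-null than in WT males on the control diet (-0.50, adjusted p = 0.00402) and on the BC diet (-0.47, adjusted p = 0.00979). In the limma fits with the filter, 29.9% and 28% of all probes passed an adjusted p under 0.05 there. The share without the filter is not given here. Casq2 was faint, with Cy5 signals of 77 to 276, and it was named after its values were seen. Myog, a factor of muscle precursors, and Lmod2, a thin filament protein, were at no more than 0.80 and 1.14 in any mouse.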
